A study of Mus musculus with 6 samples.

Results

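MA-10 cells are a clonal line of mouse Leydig tumour cells, and the levels described here are those of MA-10 cells that had received a control siRNA. The 3 arrays labelled as control siRNA were taken from the 6 arrays of the series, and the 3 arrays of cells given an siRNA against COUP-TFII (the nuclear receptor of the gene Nr2f2) enter no level below and served only a check of the log scale. Per the labels, the 3 cultures were biological replicates, were transfected for 48 h in medium with horse serum on gelatin-coated plates, and gave total RNA. No stimulation with LH or a cAMP analogue is named in the labels. The line is 1 tumour-derived clone, and no untransfected cells and no primary Leydig cells are among the samples used here.

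Leydig cells lie between the tubules of the testis and make its androgens. Luteinizing hormone binds the receptor Lhcgr, cAMP rises, protein kinase A is released from its regulatory subunits, and Star then carries cholesterol into the mitochondrion. There Cyp11a1 cuts the side chain, and 3-beta-hydroxysteroid dehydrogenases, Cyp17a1 and a 17-beta-hydroxysteroid dehydrogenase turn the product into androgens. MA-10 cells are known for a strong response to LH and cAMP and for making progesterone as their main steroid.

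Each array of the Affymetrix ST type reads a transcript with many short probes, which are summarised as a probe set. Values are normalized log2 expression, and of 35556 probe sets 26836 carried a gene symbol. Taking the brightest probe set with exactly 1 symbol gave 24032 genes. A percentile below is the place of a gene's mean among these 24032 genes. The brightness of a probe set depends on its probes as well as on the amount of RNA, so ranks order brightness and do not count transcripts, and no fold between genes is given. A level given as 1 number is the mean of the 3 arrays, and ± is the SD (n = 3). Array medians were 7.57, 7.56 and 7.56, and the values ran from 3.23 to 14.33. Replicates correlated at r = 0.998 to 0.999 across genes, where genes are not independent replicates.

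Olfactory and vomeronasal receptor genes, which serve smell and pheromone sensing, were used as a reference for dim probe sets. The 95th percentile of these 1398 genes lay at 6.91, 6.82 and 6.87 in replicates 1, 2 and 3. A gene is called above the reference where it exceeded that percentile in each of the 3 arrays, and 56 of the receptor genes themselves did. By this rule 14442 of the 24032 genes, or 60.1%, were above the reference. Among 17259 named genes other than the receptors the share was 68.2%, and with the 99th percentile of the receptors as the limit it was 49.0% of all genes. A gene that is not above the reference is dim on the array, which does not show that its transcript was absent, and a gene just above it is not shown to be transcribed.

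**Figure D1:**
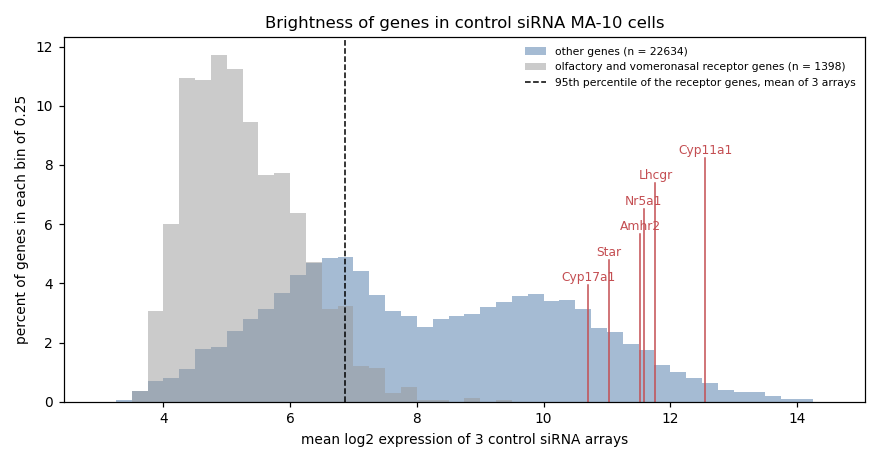
Histogram of mean log2 expression over the 3 control siRNA arrays (horizontal axis) as the percent of genes in each bin (vertical axis), for olfactory and vomeronasal receptor genes in grey and all other genes in blue. The dashed line marks the 95th percentile of the receptor genes, and red lines mark the 6 Leydig markers, which all lie to the right of it, between 10.71 and 12.55.

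The Leydig identity of the line was checked with Star, Cyp11a1, Cyp17a1, Lhcgr, Nr5a1 and Amhr2. All 6 markers were above the reference, against 60.1% of all genes, and all 6 were also above its 99th percentile. Cyp11a1, which makes pregnenolone from cholesterol, read 12.60, 12.56 and 12.48 (mean 12.55 ± 0.06, SD, n = 3, percentile 98.2). Lhcgr, the LH receptor, read 11.71, 11.80 and 11.78, and Nr5a1, the gene of the steroidogenic regulator SF-1, read 11.64, 11.58 and 11.52. Both were even between arrays (SD 0.05 and 0.06) and were among the bright genes, at percentiles 95.2 and 94.1. Amhr2, the type II receptor for anti-Müllerian hormone, read 11.54, 11.53 and 11.50. Star read 10.98, 11.11 and 10.99 (percentile 89.7). Cyp17a1, whose enzyme performs the hydroxylase and lyase steps towards androgens, had the widest spread of the 6 markers, with 10.54, 10.60 and 10.99 (mean 10.71 ± 0.25, percentile 86.6). Replicate 3 was the high array for Cyp17a1, while the other arrays were close to each other.

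Promoters of 3 of the 6 markers, Cyp11a1, Lhcgr and Amhr2, are in the RefSeq promoter table (build GRCm38.p6), which gives 250 bases before and 50 after each gene start. SF-1 binds DNA at a core of AAGGTCA, searched for on both strands here. Of these 3 genes 1 holds it, as do 4.54% of the 13192 named genes with a promoter in the table. The Amhr2 window with the match and the Lhcgr window without one are shown because their genes are close in brightness. The Amhr2 window is chr15:102445117-102445416 on the plus strand, where the match in capitals starts at position -231 relative to the gene start. The Lhcgr window is chr17:88791965-88792264 on the minus strand. Neither window holds TATAAA or TGACGTCA on either strand, so no match overlaps another.
Amhr2: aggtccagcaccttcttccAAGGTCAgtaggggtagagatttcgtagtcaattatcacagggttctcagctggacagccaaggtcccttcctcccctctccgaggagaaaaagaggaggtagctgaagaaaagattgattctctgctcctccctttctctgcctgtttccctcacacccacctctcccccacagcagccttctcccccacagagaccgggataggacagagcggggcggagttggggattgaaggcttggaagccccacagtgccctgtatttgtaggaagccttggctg
Lhcgr: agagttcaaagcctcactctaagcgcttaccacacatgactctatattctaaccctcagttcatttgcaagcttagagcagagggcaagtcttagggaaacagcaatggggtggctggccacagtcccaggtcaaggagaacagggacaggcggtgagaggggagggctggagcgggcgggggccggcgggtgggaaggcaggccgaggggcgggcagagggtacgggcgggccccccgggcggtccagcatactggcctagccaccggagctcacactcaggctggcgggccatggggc
The match is a string of letters and not a measured binding site. Across all promoters, genes above the reference did not hold AAGGTCA more often than the others (4.05% against 5.63%). Promoter composition differed with brightness, which is given as a description with no test. Genes above the reference had a median of 21 CpG dinucleotides in the 300 bases, and genes not above it had 6. A gene with several promoters counts as holding a motif where at least 1 of them does, and its CpG count is their mean. TATAAA was held by 8.42% of genes above the reference and by 19.2% of the others. The cAMP response element TGACGTCA was held by 3.56% and 1.67% of them.

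The brightest named gene, Gapdh, stood at rank 19 of all genes, and pseudogenes made up much of the top of the order. Of the 200 brightest genes, 25 carry the symbol of a ribosomal protein gene or of a pseudogene named after one, which were counted together. Another 78 were annotated as pseudogenes, 11 are mitochondrial, 7 are predicted genes, 4 are small RNAs and 75 are other named genes. All 28 mitochondrial genes were above the reference, as were 172 of the 204 genes with a ribosomal protein symbol, pseudogenes so named included. Pseudogenes share sequence with their parent genes, so their brightness cannot be told apart from that of the parents.

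Among the 25 brightest named genes, 14 were histone cluster genes of the H3 and H2A type (means 13.60 to 13.87). Histone genes of a type are near-identical copies, so the signal cannot be assigned to single members. Among the other 11 were enzymes of glycolysis, cytoskeletal genes, metallothioneins and genes of protein synthesis and folding. Gapdh, the glyceraldehyde phosphate dehydrogenase of glycolysis, was the brightest named gene with 14.02, 14.01 and 14.04. That is the brightest of its 9 probe sets, and the dimmest had a mean of 13.79, below Txn1 and Actb. Thioredoxin (Txn1), a reductant of protein disulfides, read 13.95, 14.10 and 13.95. Cytoplasmic actin (Actb) read 13.89, 13.88 and 13.88. Of these 3 leaders Txn1 had the widest range over the arrays, 0.15. The metallothioneins Mt2 and Mt1, which bind zinc and copper, had means of 13.86 ± 0.02 and 13.64 ± 0.03. The glycolytic enzyme Eno1 had 13.78 ± 0.02, the alpha tubulins Tuba1b and Tuba1c had 13.73 and 13.70, the elongation factor Eef1a1 had 13.67 and the heat shock cognate Hspa8 had 13.61. Alpha tubulin genes are also close copies of each other.

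Next in brightness, named here after their values were seen, came the intermediate filament gene vimentin (Vim, 13.57 ± 0.01), Ldha (13.52 ± 0.02) and the collagen processing enhancer Pcolce (13.44 ± 0.04). Dbi, a carrier of acyl-CoA esters and ligand of Tspo, had 13.43 ± 0.01. Adh7, a retinol-oxidising alcohol dehydrogenase, had 13.41 ± 0.06, angiotensinogen (Agt) 13.32 ± 0.06 and apolipoprotein E (Apoe) 13.19 ± 0.04.

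Of 49 measured steroid pathway genes 37, or 75.5%, were above the reference, a share not far from the 68.2% of named genes and 60.1% of all genes. The 37 genes covered each step from cholesterol uptake to the work of Cyp17a1, while the testis enzyme of the last androgen step was dim. The median percentile of the 49 genes was 80.1.

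**Figure D2:**
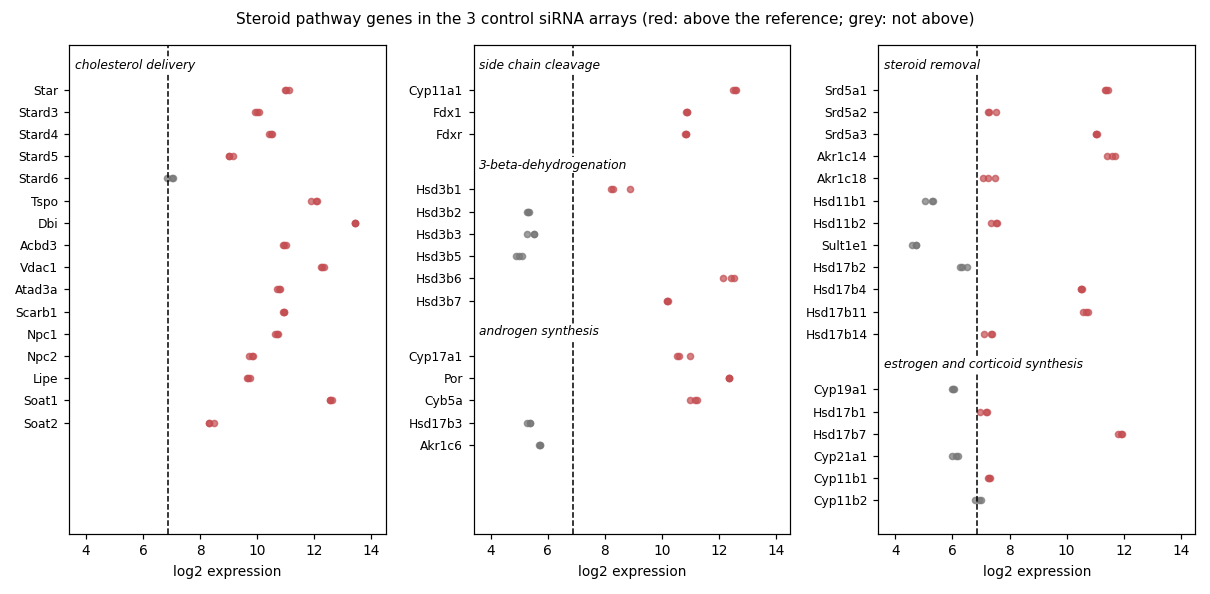
Log2 expression (horizontal axis) of measured steroid pathway genes (some are not drawn), with 1 point for each of the 3 control siRNA arrays and the genes grouped by step. Red points belong to genes above the reference in every array and grey points to the others, and the dashed line is the mean of the arrays' reference limits. Hsd3b6 at 12.36 and Hsd3b1 at 8.47 stand apart from the grey Hsd3b2, Hsd3b3 and Hsd3b5, and Hsd17b3 is grey.

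Cholesterol delivery had 16 of 17 genes above the reference, and all 16 passed the 99th percentile too. Of all genes 60.1% and 49.0% were above these limits. The HDL receptor Scarb1 read 10.88, 10.94 and 10.95, even between arrays. Also above the reference were Npc1 (10.69 ± 0.06) and Npc2 (9.78 ± 0.08), which export cholesterol from lysosomes. Soat1, which esterifies cholesterol for storage, read 12.53, 12.61 and 12.55, and Soat2 had a mean of 8.37 ± 0.11. Hormone-sensitive lipase (Lipe), which frees stored esters, had 9.68 ± 0.05. On the mitochondrial side the outer membrane protein Tspo read 11.87, 12.05 and 12.08. The channel gene Vdac1 had 12.28 ± 0.05, the Tspo partner Acbd3 10.96 ± 0.05 and the inner membrane ATPase Atad3a 10.75 ± 0.06. Of the sterol carriers related to Star, Stard4 (10.45 ± 0.05), Stard3 (9.99 ± 0.05) and Stard5 (9.06 ± 0.08) were above the reference. Stard6, a START gene known from male germ cells, was the exception with 6.82, 7.05 and 7.03, close to the limit.

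Side chain cleavage needs electrons from ferredoxin (Fdx1) and its reductase (Fdxr). Fdx1 had 10.86 ± 0.02 and Fdxr 10.83 ± 0.03, so that all 3 measured genes of this step were above the reference. Por, which feeds electrons to Cyp17a1, had 12.35 ± 0.01, and cytochrome b5 (Cyb5a), a helper of the lyase reaction, had 11.12 ± 0.11.

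For 3-beta-hydroxysteroid dehydrogenase, Hsd3b6 read 12.15, 12.41 and 12.51 (percentile 97.6) and Hsd3b1 read 8.22, 8.89 and 8.29 (percentile 58.8). Hsd3b6 is the form known from adult mouse Leydig cells, and Hsd3b1 is known from fetal Leydig cells, the adrenal and the ovary. Hsd3b1 was 1 of the 20 most variable named genes above the reference, with replicate 2 high. Hsd3b2 (5.30 ± 0.02), Hsd3b3 (5.44 ± 0.15) and Hsd3b5 (4.99 ± 0.11), forms known from liver and kidney, were not above the reference. Hsd3b7, which acts in bile acid synthesis, had 10.19 ± 0.03. The 3-beta-HSD genes are similar in sequence, and cross-hybridisation between them was not tested.

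Hsd17b3, the testis enzyme that makes testosterone from androstenedione, read 5.38, 5.27 and 5.39 (percentile 12.8). It was not above the reference in any of the 3 arrays. Akr1c6, a mouse aldo-keto reductase with 17-beta activity, was not above it either (5.72 ± 0.02). Other members of the 17-beta family were bright. Hsd17b10, a mitochondrial enzyme of fatty acid and amino acid breakdown, had 12.29 ± 0.03, Hsd17b7, which also acts in cholesterol synthesis, had 11.87 ± 0.07, and Hsd17b12, an enzyme of fatty acid elongation, had 11.75 ± 0.08. Hsd17b11 (10.65 ± 0.08) and Hsd17b4 (10.51 ± 0.03) followed, and 4 of the 12 family members were not above the reference.

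Steroid removal had 9 of 12 genes above the reference, and 5 above its 99th percentile, beside 60.1% and 49.0% of all genes. The 5 were Akr1c14, Srd5a1, Srd5a3 and the 17-beta enzymes Hsd17b11 and Hsd17b4. The 5-alpha reductase Srd5a1 read 11.38, 11.44 and 11.33, and the 3-alpha-hydroxysteroid dehydrogenase Akr1c14 read 11.43, 11.68 and 11.58. Srd5a3, better known for dolichol synthesis, had 11.04 ± 0.03. Srd5a2 (7.36 ± 0.15), the 20-alpha-reductase Akr1c18 (7.27 ± 0.21), Hsd11b2 (7.47 ± 0.12) and Hsd17b14 (7.29 ± 0.15) were above the 95th but not the 99th percentile of the reference. Hsd11b1, a marker of adult Leydig cells that regenerates active glucocorticoid, was not above the reference, with 5.30, 5.03 and 5.28. The estrogen sulfotransferase Sult1e1 (4.67 ± 0.09) and Hsd17b2 (6.38 ± 0.13) were not above it.

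Estrogen and corticoid synthesis had 3 of 6 genes above the reference, and 1, Hsd17b7, above the 99th percentile. Of all genes 60.1% and 49.0% were above these limits. Aromatase (Cyp19a1) had 6.02 ± 0.03, the 21-hydroxylase Cyp21a1 6.10 ± 0.10 and aldosterone synthase (Cyp11b2) 6.91 ± 0.11. These 3 were not above the reference. Hsd17b1 (7.12 ± 0.13) and Cyp11b1 (7.27 ± 0.03) were just above it.

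Of 22 measured Leydig cell markers, which include Lhcgr and Amhr2, 15 were above the reference and 13 above its 99th percentile. That share of 68.2% equals the share of all named genes, so as a list they did not stand out. Insl3, the classic peptide hormone of Leydig cells, lies only on a probe set shared with another gene and is not given a level. Inhibin alpha (Inha) read 12.90, 13.00 and 12.93, percentile 98.9. The activin subunits Inhba (9.82 ± 0.03) and Inhbb (7.78 ± 0.10) were above the reference as well, and Inhbc (6.70 ± 0.21) and Inhbe (5.82 ± 0.08) were not. The glutathione transferase gene Gsta2 had 11.67 ± 0.10, the alcohol dehydrogenase Adh1 11.07 ± 0.02, the prolactin receptor Prlr 10.81 ± 0.02, Bmp6 10.77 ± 0.03 and the Hedgehog receptor Ptch1 10.54 ± 0.01. Nr2f2, the target of the other siRNA in the series, had 9.05 ± 0.13, Spry2 8.62 ± 0.05, Cyp2f2 8.18 ± 0.16, Vcam1 7.28 ± 0.05 and Ptgds 7.22 ± 0.10.

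Markers of Leydig progenitors and of mature cells were among the 7 that were not above the reference. Pdgfra, the PDGF receptor of fetal and progenitor Leydig cells, read 6.97, 6.77 and 7.07, with 2 of the 3 arrays over the limit. Tcf21, a factor of interstitial progenitors, had 6.23 ± 0.06, and Thbs2 had 6.44. The angiotensin receptor Agtr1a (6.78 ± 0.06), Igf1 (6.52 ± 0.08), Cbr2 (6.27 ± 0.23) and Hsd11b1 complete the 7.

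The transcription factors known from Leydig cells and gonads had 34 of 43 members (79.1%) above the reference and 28 above its 99th percentile. Of all genes 60.1% and 49.0% were above these limits, and of named genes 68.2% were above the reference. Among nuclear receptors, Nr0b1 (DAX-1), a repressor of SF-1, was brightest with 11.90, 11.94 and 12.01. Nr5a1 stood at 11.58 ± 0.06 while Nr5a2 (LRH-1), its close relative known from granulosa cells and liver, had 5.74 ± 0.03 and was not above the reference. Nr4a1 (Nur77), which cAMP induces in Leydig cells, read 10.55, 10.57 and 10.72, whereas Nr4a2 had 7.01 ± 0.06 and Nr4a3 had 6.90. Nr0b2 (SHP) had 9.76 ± 0.08, Nr2f6 8.90 ± 0.08 and Nr2f1 (COUP-TFI) 6.64 ± 0.05, the last not above the reference. Each of these families thus had at least 1 member above the reference and at least 1 that was not, apart from the DAX-1 and SHP pair.

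Gata4 read 11.33, 11.23 and 11.25 and Gata6 read 9.57, 9.41 and 9.67, both factors known to act on steroid genes. Of their cofactors, Zfpm1 (FOG1) had 9.57 ± 0.05 and Zfpm2 (FOG2), the form known to partner Gata4 in the gonad, had 5.98 ± 0.07 and was not above the reference. Mef2a had 11.04 ± 0.07, Mef2d 10.79 ± 0.09 and Mef2c 10.13 ± 0.06. The other probe set of Mef2d was dimmer, at 8.17. Cebpb had 9.74 ± 0.06, Cebpa was just above the reference (7.38 ± 0.04) and Cebpd was not (6.29 ± 0.09).

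All 8 CREB and AP-1 genes were above the reference. Jun read 10.90, 10.96 and 11.15. Creb1 had 10.77 ± 0.06, Fosl2 10.62 ± 0.05, Jund 10.53 ± 0.02, Atf3 9.90 ± 0.17, Junb 8.29 ± 0.19 and Crem 7.14 ± 0.12. Fos is described with the variable genes. Among the remaining factors, Sp3 had 11.88 ± 0.04, the CCAAT factor Nfya 11.53 ± 0.04, Sp1 10.32 ± 0.03, Klf6 10.14 ± 0.15, Cbx2 9.80 ± 0.06 and Maf 9.41 ± 0.02. Factors known from the early gonad differed in level, with Nr5a1, Gata4 and Cbx2 bright. Lhx9 (6.71 ± 0.02) and Emx2 (5.65 ± 0.05) were not above the reference, and Wt1 was just above it (7.06 ± 0.08). Dlx6 had 7.06 ± 0.11, Dmrt1 7.14 ± 0.08 and Dlx5 6.80 ± 0.10.

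Families of related genes were described by which members were above the reference, in 32 families. In lactate dehydrogenase, phosphoglycerate kinase and pyruvate kinase, enzymes of glycolysis, 1 member was bright and no other was above the reference. Ldha, the lactate dehydrogenase known from tumours and muscle, read 13.53, 13.49 and 13.53, while the heart form Ldhb read 6.26, 6.11 and 6.41 and the sperm form Ldhc had 5.65 ± 0.16. Pgk1 read 12.60, 12.62 and 12.70, and the sperm form Pgk2 had 4.89 ± 0.03. Neither Ldhb, Ldhc nor Pgk2 exceeded the limit in any array. Pyruvate kinase Pkm had 12.14 ± 0.05 and the liver form Pklr 6.98 ± 0.09, near the limit. Pklr missed the limit in replicate 1 alone.

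Slc2a1 (GLUT1), the general glucose transporter, read 12.06, 12.05 and 12.18. Slc2a8 was above the reference too, the insulin-responsive Slc2a4 had 7.90 ± 0.10, Slc2a2 had 6.99 ± 0.03, and Slc2a3 and Slc2a5 were not above the reference. Hk2 (10.16 ± 0.07) and Hk1 (9.87 ± 0.04) were the bright hexokinases, and Hk3 was not above the reference. Aldoa had 12.91 ± 0.03 and Aldoc 10.40 ± 0.14. After Eno1, the muscle enolase Eno3 had 9.69 ± 0.06 and the neuronal Eno2 7.96 ± 0.04.

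**Figure D3:**
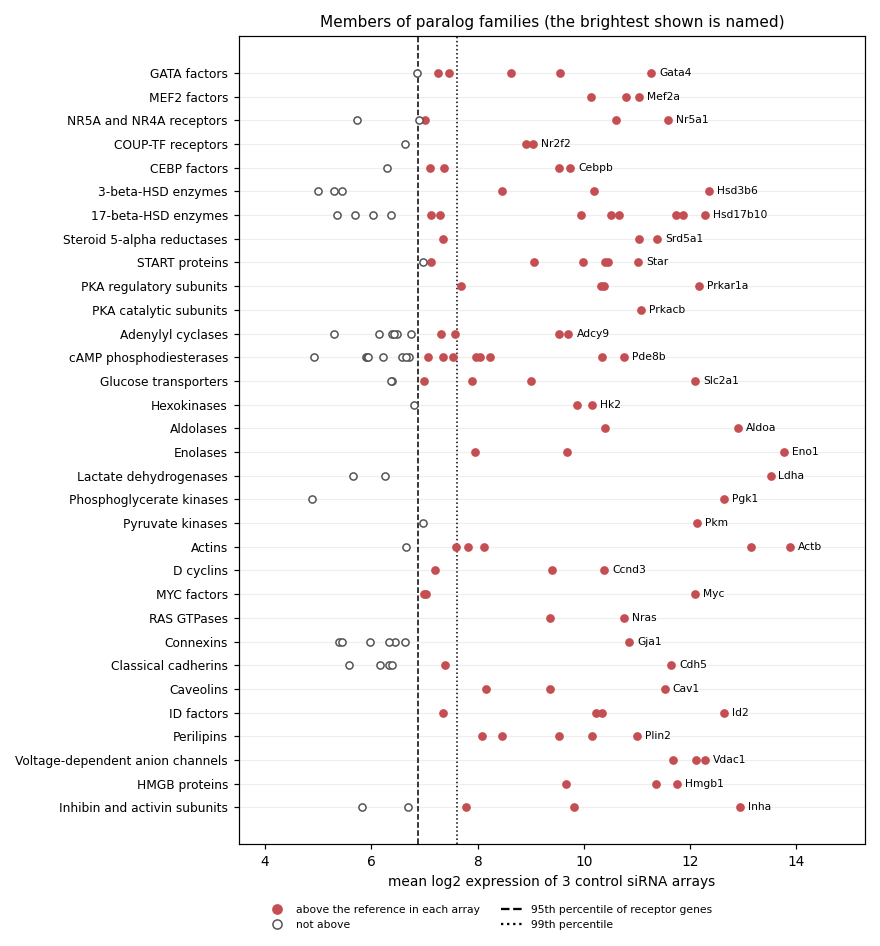
Mean log2 expression over the 3 control siRNA arrays (horizontal axis) of the measured members of 32 gene families (vertical axis), with filled points for members above the reference in each array and open points for the others. Dashed and dotted lines mark the 95th and 99th percentiles of the receptor genes, and the brightest member shown is named (some members are not drawn). Families such as lactate dehydrogenases, connexins and phosphoglycerate kinases show 1 filled point far to the right of open ones, with Ldha at 13.52 and Gja1 at 10.86.

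Among connexins and cadherins, too, 1 member was far brighter than the rest. Gja1 (connexin 43), the gap junction protein of Leydig cells, read 10.79, 10.85 and 10.95, and it was the 1 connexin of 7 above the reference. The brightest cadherin was Cdh5 (VE-cadherin), known as the junction protein of endothelium, with 11.62, 11.58 and 11.74. E-cadherin (Cdh1, 6.33 ± 0.08), N-cadherin (Cdh2, 5.57 ± 0.05), Cdh3 and Cdh11 were not above the reference, and Cdh4 was just above it (7.38 ± 0.20). Caveolae genes had all 3 members above the reference, with Cav1 at 11.53 ± 0.04, Cav2 at 9.37 ± 0.09 and the muscle form Cav3 at 8.16 ± 0.01. The 5 perilipins, coat proteins of lipid droplets, were also all above it, led by Plin2 (percentile 89.5), Plin3 (10.16 ± 0.06) and Plin5 (9.54 ± 0.09), with Plin1 at 8.46 ± 0.13 and Plin4 at 8.08 ± 0.04.

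For growth control, Myc read 12.07, 12.12 and 12.11, whereas Mycl (7.04 ± 0.06) and Mycn were just above the reference. Id2, a partner that blocks basic helix-loop-helix factors, had 12.64 ± 0.05, with Id3 at 10.34 ± 0.05, Id1 at 10.23 ± 0.03 and Id4 at 7.34 ± 0.10. Cyclin genes Ccnd3 (10.39 ± 0.05), Ccnd1 (9.40 ± 0.08) and Ccnd2 (7.19 ± 0.04) and the RAS genes Nras (10.76 ± 0.02) and Hras (9.36 ± 0.03) were all above it. Actins other than Actb were led by Actg1 (13.16 ± 0.06), with the muscle forms Actc1 (8.12 ± 0.04), Acta1 (7.81 ± 0.08) and Acta2 lower and Actg2 not above the reference. Gata1 (8.64 ± 0.14), Gata2 (7.46 ± 0.05) and Gata5 (7.25 ± 0.08) completed the GATA genes above the reference. The channel genes Vdac2 (12.11 ± 0.06) and Vdac3 (11.68 ± 0.09) and the chromatin proteins Hmgb1 (11.76 ± 0.08), Hmgb2 (11.36 ± 0.11) and Hmgb3 (9.67 ± 0.09) were above it in all 3 arrays. The other probe set of Hmgb1 was dimmer, at 10.17.

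The cAMP route downstream of the LH receptor had 22 of 25 measured genes (88%) above the reference and 21 above its 99th percentile. The shares of all genes were 60.1% and 49.0%, and 68.2% of named genes were above the reference. Prkar1a, the regulatory subunit lost in Carney complex in humans, read 12.16, 12.17 and 12.18. Prkar2a (10.37 ± 0.15), Prkar2b (10.32 ± 0.09) and Prkar1b (7.69 ± 0.03) were above the reference too. The catalytic subunit Prkacb read 11.11, 10.99 and 11.13, while Prkaca lies only on a shared probe set and is not given a level. Of 10 adenylyl cyclases, which make cAMP, 4 (40%) were above the reference, beside 60.1% of all genes. Adcy9 (9.71 ± 0.04) and Adcy3 (9.53 ± 0.06) were followed by Adcy7 (7.58 ± 0.05) and Adcy4 (7.30 ± 0.11).

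Phosphodiesterases, which break cAMP down, had 8 of 16 members (50%) above the reference, beside 60.1% of all genes. Pde8b read 10.74, 10.65 and 10.91 and Pde8a read 10.30, 10.38 and 10.35. The PDE8 enzymes have a high affinity for cAMP and are known to restrain steroid synthesis in Leydig cells. Next came Pde4a (8.23 ± 0.06), Pde1a (8.04 ± 0.10) and Pde7a (7.97 ± 0.06), while Pde3a, Pde3b, Pde4b and Pde4d were among those not above the reference. The G protein genes Gnas (10.97 ± 0.01), Gnai2 (11.15 ± 0.03), Gnai3 (11.28 ± 0.04) and Gnb1 (13.24 ± 0.01) were bright. The cAMP-gated exchange factor Rapgef4 (Epac2) had 9.81 ± 0.09, and Rapgef3 (Epac1) had 6.60 ± 0.22 and was not above the reference.

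Receptors of 6 classes had 117 of 177 members above the reference and 97 above its 99th percentile. The share above the 95th percentile was 66.1%, beside 60.1% of all genes and 68.2% of named genes, so as a group they were near the background. The classes differed in how many members were bright.

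G protein-coupled hormone receptors had 18 of 44 above the reference (40.9%), beside 60.1% of all genes. The oxytocin receptor Oxtr was brightest, with 11.92, 11.88 and 11.96, close to Lhcgr at 11.77 ± 0.05. The thrombin receptor F2r had 9.84 ± 0.12, the CRH receptor Crhr1 read 9.57, 9.57 and 9.66, and the sphingosine phosphate receptor S1pr2 had 9.33 ± 0.09. Receptors of other pituitary hormones ranged from bright to dim. Besides Oxtr, the prolactin receptor Prlr (10.81 ± 0.02), the growth hormone receptor Ghr (9.52 ± 0.16) and the vasopressin receptor Avpr1a (8.03 ± 0.17) were above the reference. The FSH receptor Fshr, which marks Sertoli and granulosa cells, read 6.66, 6.67 and 6.56, the TSH receptor Tshr had 5.37 ± 0.11 and the ACTH receptor Mc2r read 4.79, 4.61 and 4.71. Fshr, Tshr and Mc2r did not exceed the limit in any array. Mrap, an accessory protein of Mc2r, was bright all the same, with 10.65, 10.65 and 10.62. The kisspeptin receptor Kiss1r, chosen after its value was seen, had 8.85 ± 0.08.

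Receptor tyrosine kinases had 22 of 34 above the reference (64.7%), beside 60.1% of all genes. Kit, the receptor for stem cell factor and known from Leydig and germ cells, read 11.84, 11.82 and 11.70. The EGF receptor Egfr read 11.29, 11.20 and 11.24, while of its relatives Erbb3 had 8.97 ± 0.05 and Erbb2 and Erbb4 were not above the reference. Insr had 10.99 ± 0.02, the collagen receptor Ddr2 10.90 ± 0.04 and Igf1r 10.04 ± 0.07. The other probe set of Insr was dimmer, at 9.89.

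Cytokine receptors had 16 of 20 members above the reference (80%), and all 16 were also above its 99th percentile. Of all genes 60.1% and 49.0% were above these limits. Il6st (gp130), the shared signalling chain of the interleukin-6 family, read 11.67, 11.74 and 11.72. The interferon receptor chain Ifnar2 had 11.34 ± 0.07, the TNF receptor Tnfrsf1a 11.28 ± 0.04 and Ifngr2 and Il10rb 10.59 each. The leptin receptor Lepr, Fas, Il2rg and Csf2rb were not above the reference. TGF-beta family receptors had 11 of 14 above it (78.6%), beside 60.1% of all genes. After Amhr2 came the BMP receptors Bmpr1a (11.43 ± 0.10) and Bmpr2 (11.12 ± 0.08), the co-receptor Tgfbr3 (10.43 ± 0.04), known as betaglycan and as an inhibin co-receptor, and Tgfbr1 (10.24 ± 0.10). Acvr1c, Bmpr1b and Eng were not above it.

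Nuclear receptors outside the Leydig factors had 26 of 38 above the reference (68.4%), beside 60.1% of all genes. The estrogen receptor Esr1 read 11.23, 11.15 and 11.24. Esr2, by contrast, read 6.35, 6.22 and 6.27 and was below the limit in every array, as were the progesterone receptor Pgr (6.42 ± 0.07), the mineralocorticoid receptor Nr3c2 (6.20 ± 0.11) and the vitamin D receptor Vdr (6.59 ± 0.11). The clock receptor Nr1d1 had 10.78 ± 0.12, Ppara 10.43 ± 0.09 and Nr6a1 10.42 ± 0.10. Receptors of developmental signals (Hedgehog, Notch, Wnt and guidance cues) had 24 of 27 members above the reference (88.9%), beside 60.1% of all genes. The semaphorin and VEGF co-receptor Nrp1 led them, with 12.30, 12.37 and 12.33. Lrp5 had 11.46 ± 0.07, Plxna1 11.06 ± 0.03 and Notch2 and Lrp6 10.99 each, and the Frizzled genes Fzd6, Fzd8 and Fzd10 were not above the reference.

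Markers of other cell types were mostly dim. Over 18 lineage lists 59 of 160 members, or 36.9%, were above the reference, beside 60.1% of all genes, and 25 were above its 99th percentile. In a culture, fewer cells of a type and less RNA per cell cannot be told apart. No lineage list had all of its members above the reference. The Sertoli list (81.8%) and the peritubular myoid list (75%) had a larger share above it than the 22 Leydig cell markers (68.2%). Above the 99th percentile were 3 of 11 Sertoli, 2 of 8 myoid and 13 of 22 Leydig markers.

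**Figure D4:**
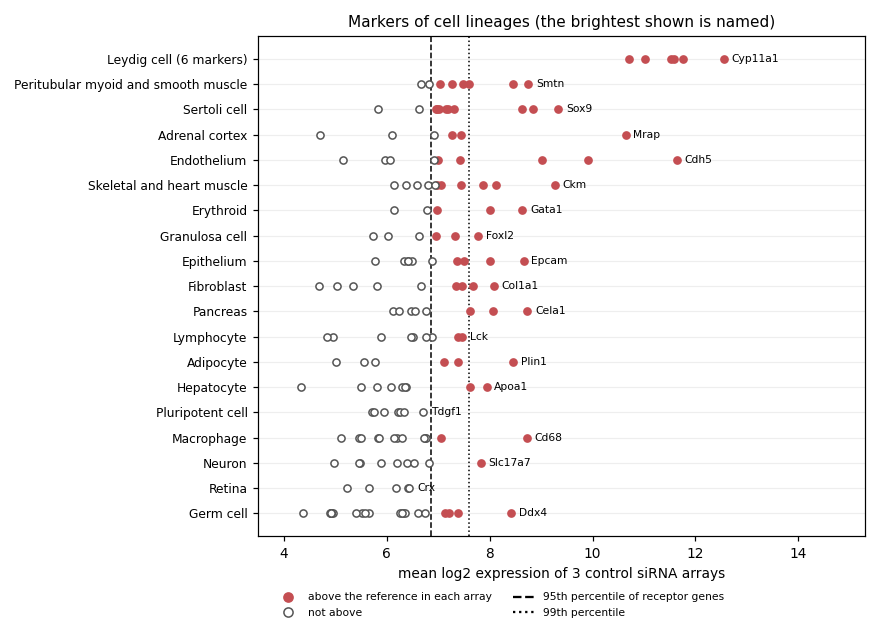
Mean log2 expression over the 3 control siRNA arrays (horizontal axis) of the 6 Leydig markers and the members of 18 lineage lists (vertical axis, ordered by median), with filled points for members above the reference in each array and open points for the others. Dashed and dotted lines mark the 95th and 99th percentiles of the receptor genes, and the brightest member shown is named (some members are not drawn). The Leydig markers lie at 10.71 and above, and among the markers of other lineages Cdh5 at 11.64 and Mrap at 10.64 reach that far or close to it.

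Within the testis, Sertoli cell markers had 9 of 11 above the reference but 3 above its 99th percentile. Sox9, the factor that sets Sertoli fate, read 9.22, 9.29 and 9.48. Desert hedgehog (Dhh), which Sertoli cells send to Leydig cells, read 8.79, 8.91 and 8.83, and Gata1, which is also on the erythroid list, had 8.64 ± 0.14. The other 6 above the reference, Cldn11, Tsx, Dmrt1, Gdnf, Shbg and the hormone Amh, lay between 6.95 and 7.30, close to the limit. Fshr and Aard were not above it.

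Germ cell markers had 4 of 20 above the reference. Ddx4 (Vasa), an RNA helicase of the germ line, read 8.36, 8.45 and 8.42 and alone passed the 99th percentile, while the protamines Prm2 (7.39 ± 0.09) and Prm1 (7.14 ± 0.11) and Nanos3 (7.21 ± 0.10) lay lower. The meiosis genes Sycp1 (4.38 ± 0.01), Sycp3 (4.91 ± 0.14) and Stra8 (4.91 ± 0.05) and the RNA-binding gene Dazl (4.95 ± 0.11) were all dim. Peritubular myoid and smooth muscle genes had 6 of 8 above the reference, led by Smtn (8.75 ± 0.06) and the myosin kinase Mylk (8.46 ± 0.05), with Acta2, Des (7.49 ± 0.14), Myh11 (7.27 ± 0.12) and Cnn1 (7.03 ± 0.03) near the limit and Tagln and Actg2 not above it.

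Endothelial markers had 5 of 9 above the reference and split in level. Besides Cdh5, the transcription factor Sox18 read 9.97, 10.05 and 9.73 and the junction protein Esam had 9.02 ± 0.14. Pecam1 (6.91 ± 0.03), the VEGF receptor Kdr (5.96 ± 0.01), the angiopoietin receptor Tek (6.07 ± 0.07) and Emcn (5.14 ± 0.07), defining markers of endothelium, were not above the reference. Vwf (7.43 ± 0.02) and Tie1 were near the limit, and Pecam1 missed it in replicate 1 alone. Macrophage markers had 2 of 13 above it, the lysosomal protein gene Cd68 (8.59, 8.76 and 8.82) and Cd14 (7.06 ± 0.17). The leukocyte gene Ptprc (5.85 ± 0.08), the macrophage growth factor receptor Csf1r (6.20 ± 0.10), Adgre1 (5.10 ± 0.02) and Cd163 (5.46 ± 0.06) were not. Lymphocyte genes had 2 of 9 above the reference, Lck (7.46 ± 0.09) and Cd3e (7.38 ± 0.13), and 0 above its 99th percentile, with Cd3d, Cd4 and Cd8a among those not above.

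The lists of other steroid-making tissues were split. Of the adrenal cortex list 3 of 6 were above the reference, Mrap, Akr1b7 (7.43 ± 0.06) and Cyp11b1, while Mc2r, Cyp21a1 and Cyp11b2 were not. Of the granulosa list 3 of 6 were above it, the ovarian factor Foxl2 (7.93, 7.62 and 7.79), Fst (7.32 ± 0.16) and Amh, while Fshr, Cyp19a1 and Nr5a2 were not.

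In lists of distant tissues, the share above the reference ran from 11.1% of the neuron list to 54.5% of the muscle list, beside 60.1% of all genes. Of the muscle list, Ckm, the muscle creatine kinase, read 9.20, 9.19 and 9.43. Actc1, Tnni2 (7.88 ± 0.06), Mb (7.44 ± 0.10), Myod1 (7.06 ± 0.11) and Tnnt2 (6.98 ± 0.08) were also above the reference, and 5 of 11, such as Myh4, Myh6 and Ttn, were not. Neuron genes had 1 of 9 above it, the glutamate transporter gene Slc17a7 (7.83 ± 0.07), and Snap25, Syt1 and Rbfox3 were not. Pancreas genes had 3 of 8 above it, Cela1 (8.73 ± 0.05), Ppy (8.06 ± 0.13) and Ins2 (7.62 ± 0.23), with Ins1, Gcg and Prss1 not above. Hepatocyte genes had 2 of 9, Apoa1 (7.94 ± 0.08) and Apoa2 (7.62 ± 0.14), with albumin (Alb, 5.81 ± 0.03), Ttr and Afp not above. What puts these genes above the reference was not tested.

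Epithelial genes had 4 of 10 above the reference, Epcam (8.66 ± 0.08), Krt8 (8.01 ± 0.14), Cldn4 (7.50 ± 0.11) and Tjp3 (7.37 ± 0.10), and Cdh1, Krt5 and Krt14 were not. Krt18, the partner of Krt8 in simple epithelia, had 6.50 ± 0.18 and was not above it. Fibroblast genes had 4 of 9, Col1a1 (8.08 ± 0.13), Col1a2 (7.68 ± 0.13), Col3a1 (7.47 ± 0.08) and Thy1 (7.34 ± 0.26), and Dcn, Lum and Postn were not. Adipocyte genes had 3 of 6, Plin1, Cfd (7.38 ± 0.09) and Cidec (7.11 ± 0.05), and Adipoq, Lep and Fabp4 were not. Erythroid genes had 3 of 6, Gata1, the alpha globin gene Hba-a1 (8.02 ± 0.11) and Klf1 (6.98 ± 0.10), and Alas2 and Epb42 were among those that were not. The pluripotency list had 0 of 7 members above the reference, with Pou5f1 (5.96 ± 0.11), Nanog (6.22 ± 0.14) and Sox2 (5.71) among them and Tdgf1 highest at 6.70 ± 0.13.

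Genes of the Y chromosome were dim with 1 exception. Of 10 named genes on Y in the deposited annotation 1 was above the reference, beside 51.7% of 604 genes on X and 56.5% (chromosome 6) to 74.8% (chromosome 11) on the autosomes. Sry, the testis-determining gene, was the exception, with 8.10, 8.11 and 8.30. Eif2s3y, a translation factor gene that male mouse cells use broadly, read 4.04, 3.89 and 3.95, which puts it at percentile 1.1. Ddx3y (5.17 ± 0.11), Kdm5d (5.41 ± 0.19), Uty (5.01 ± 0.10) and Usp9y (4.63 ± 0.23), broadly used as well, were not above the reference, nor were Uba1y (6.24 ± 0.16), Zfy1 (4.61 ± 0.09), Zfy2 (4.32 ± 0.09) and Sly (4.41 ± 0.06). Xist, the RNA that silences an X chromosome in female cells, read 5.45, 5.30 and 5.50 and was not above it. Neither the Y genes that male cells commonly use nor Xist was therefore bright, and the state of the Y chromosome was not tested.

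All 22 tumour suppressor and oncogene transcripts were above the reference, against 60.1% of all genes and 68.2% of named genes. Above its 99th percentile were 21 of them, Mycn being the exception. Cdk4, the cyclin D kinase, was brightest with 12.96, 13.02 and 12.92, followed by Myc. Genes that tumour lines often lose were among them. Cdkn2a (p16 and Arf) had 10.94 ± 0.07, its neighbours Mtap and Cdkn2b had 10.41 ± 0.06 and 8.83 ± 0.09, and Trp53 read 10.98, 10.93 and 11.06. The p53 target and inhibitor Cdkn1a had 11.37 ± 0.10, the p53 ligase Mdm2 10.09 ± 0.08, Cdkn2c 11.25 ± 0.06 and Cdkn1b 10.85 ± 0.10. Apc (11.23 ± 0.05), Smad4 (11.12 ± 0.07), Nf1 (10.43 ± 0.04), Pim1 (10.19 ± 0.03), the telomerase gene Tert, Brca1 (9.93 ± 0.07), Vhl (9.45 ± 0.09) and Rb1 (9.34 ± 0.13) were also above the 99th percentile. The other probe set of Cdkn1b read 8.67. A transcript level says nothing about mutations of these genes.

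Imprinted genes had 7 of 15 members (46.7%) above the reference, beside 60.1% of all genes. Dlk1, a Notch-like surface protein of fetal Leydig and adrenal cells, read 12.76, 12.74 and 12.84, and Meg3, the noncoding RNA of the same cluster on chromosome 12, read 11.98, 11.98 and 11.97. These 2 genes are known to be expressed from opposite parental copies. Igf2 (6.90, 6.85 and 6.78) and H19 (6.32, 6.28 and 6.21), the pair on chromosome 7, were not above the reference. Sgce (10.57 ± 0.07) and Peg10 (9.35 ± 0.08), neighbours in another cluster, were above it, as were Cdkn1c (7.90 ± 0.02), Igf2r (7.78 ± 0.07) and Nnat (7.03 ± 0.09). Peg3, Mest, Grb10, Zim1, Ndn and Magel2 were not.

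Interferon-response genes, which transfected nucleic acid can induce in many cells, had 9 of 17 (52.9%) above the reference, beside 60.1% of all genes. The kinase gene Eif2ak2 had 9.90 ± 0.14, the RNA sensor gene Ddx58 9.40 ± 0.06, the chemokine gene Cxcl10 9.35 ± 0.14 and Tlr3 9.25 ± 0.07. Also above it were Bst2 (8.88 ± 0.06), Ifih1 (7.92 ± 0.06), Usp18 (7.86 ± 0.09) and Rsad2 (6.99 ± 0.05). Other genes that interferon induces, among them Ifit1 (6.09 ± 0.01), Mx1 (5.41 ± 0.04), Oas1a (6.91 ± 0.05) and Irf7 (6.81 ± 0.07), were not above the reference. No untransfected culture was among the arrays used, so the part of transfection in these levels was not tested.

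Replicates differed little. The median SD over the 3 arrays was 0.0686 for all genes, 0.0616 for genes above the reference and 0.0813 for the others. When genes were cut into 10 bins of equal size by brightness, it was highest, at 0.0863, in the fourth bin from below and lowest, at 0.0447, in the brightest bin. The median range over the 3 arrays was 0.117 among genes above the reference, and 106 of them, or 0.734%, had a range over 0.5.

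A few genes varied far more than that. The 20 named genes above the reference with the widest range were led by Egr1 and Fos. Both are immediate early genes, which serum is known to induce within minutes. Egr1 read 8.09, 9.50 and 10.24, a range of 2.15. Fos read 7.81, 8.47 and 9.15, and Ier2, also an immediate early gene, read 8.36, 8.86 and 9.19. In each of these 3 genes replicate 1 was low and replicate 3 high. Of 26 early-response genes, a list added after these values were seen, 22 were above the reference. Among the 22, 12 were lowest in replicate 1 and highest in replicate 3, beside 18.6% of all genes above the reference, and 3 had a range over 0.5. Those 3, Egr1, Fos and Ier2, are also among the 12 and were seen before the list was made. The count of 12 is therefore in part set by how the list was chosen. Culture conditions and harvest times that could differ between replicates are not given in the labels.

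The other genes with wide ranges included the kinase-like receptor Ror1 (9.37, 9.25 and 9.98), Igfbp5 (10.15, 10.17 and 10.82), the myosin light chain gene Myl9 (9.02, 9.15 and 9.63) and Col6a3 (8.91, 8.93 and 8.36), in each of which replicate 3 stood apart. The linker histone Hist1h1d (7.16, 7.95 and 7.93) was low in replicate 1. Hsd3b1, the zinc finger genes Zfp931, Zfp442 and Zfp125, Mrps36 and Hmgn5 were high in replicate 2, and Cryaa and Prp2 were low in it. Olfr767, itself a gene of the receptor reference, read 9.36, 8.52 and 8.84, and its range of 0.839 was wider than that of Ier2 (0.834). Catsperg1, Lcn2 and Tppp3 complete the 20. The array farthest from the other 2 was replicate 1 in 7 genes, replicate 2 in 7 and replicate 3 in 6. Replicate 1 was the lowest array in 12 of the 20 genes, against 4 each for the others. Replicate 2 was the highest in 10, replicate 3 in 6 and replicate 1 in 4.

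**Figure D5:**
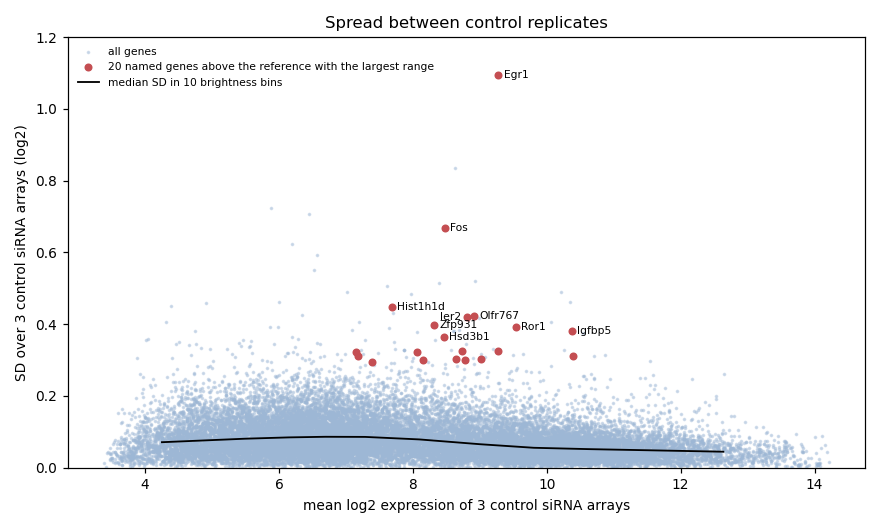
Standard deviation over the 3 control siRNA arrays (vertical axis, log2) against mean log2 expression (horizontal axis) for all 24032 genes, with the 20 most variable named genes above the reference in red and the median SD in each of 10 brightness bins as a black line. Egr1 lies at the top with an SD of 1.09, followed by Fos at 0.67, while the black line peaks at 0.0863.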

How the data were processed

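The authors deposited normalized log2 expression per probe set of an Affymetrix ST array for each sample. Per the submitters' processing notes the software was Partek 7.0, and how it corrected background, summarised probes and normalized arrays is not given in the sources used here. The log2 base was checked against the ratio column of the authors' deposited table, where group differences followed the log2 ratio with a slope of 0.981 over 322 probe sets. Gene symbols and chromosomes are those of that deposited annotation, which names no build.

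The group was taken from the sample titles. No test was made, since 1 group is described, and the number of arrays (3) limits the precision. Means and SDs were computed with pandas 2.3.3 in Python 3.11.15. Of 734 genes with several probe sets the brightest was used (median gap between brightest and dimmest 0.83), and 1382 probe sets with several symbols were left out. The counting rule was run on simulated data with genes planted well above or well below the limit, which does not test calls close to it. Members and gene lists were chosen with earlier results of these data known. Of 623 list genes 606 were found, 7 of them under another name, 13 lie only on shared probe sets and 4 had no probe set. The text names the markers, the 25 brightest named genes, the steroid and Leydig lists, the brightest members of each family and receptor class, the lineage members above the reference with some that were not, and the 20 most variable genes. Named genes leave out predicted genes, small RNAs, pseudogenes and mitochondrial and ribosomal protein genes. Alternatives were other percentiles, another reference, other probe set rules, 2 normalizations and leaving out each array. A few withheld genes count in the totals but get no result of their own.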

Additional observations from a re-analysis of the deposited data

How the results depend on the processing

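All 6 markers were above the reference under every alternative run. The genes above the reference numbered 14442, and 16188 with the 90th and 11778 with the 99th percentile. They numbered 14925 when the mean over arrays was used, 14377 with the mean over the probe sets of a gene and 9841 with 52 genes of other organs as the reference, whose 95th percentile lay at 8.40 to 8.42. Leaving out an array gave 14529 to 14596, and median centring and quantile normalization gave 14442. Of different list members, 371 were above the reference, and 237 with the genes of other organs as the reference. Those 52 genes are themselves on the lineage lists. Few of them could exceed their own 95th percentile, which lowers the 237. Of 60 lists, 7 moved their count by over 1.5 times with the 90th percentile, 19 with the 99th, 27 with the other organs, 1 with the mean over arrays and 1 without replicate 1. Of the 111 genes on the marker, Leydig, steroid pathway and transcription factor lists, those above the 95th but not the 99th percentile were Akr1c18, Cebpa, Crem, Cyp11b1, Dlx6, Dmrt1, Hsd11b2, Hsd17b1, Hsd17b14, Nr4a2, Ptgds, Srd5a2, Vcam1 and Wt1, and over all 606 list genes there were 83. Of the 111 levels 2, Mef2d and Prlr, moved by more than their SD with the mean over probe sets, as did 12 of the 606, and 0 of the 606 under the normalizations. The median SD between arrays was 0.0686, 0.0616 over genes above the reference and 0.0506 to 0.0614 when an array was left out, where SDs rest on 2 arrays. No paired analysis was possible because 1 group is described and no test was made. Levels near the limit, between 6.82 and 7.70, should be read as close to background. With the genes of other organs as the reference, genes with a mean below 8.40 were not above it either. Genes on shared probe sets, such as Insl3 and Prkaca, have no level of their own.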

Other observations

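Genes that supply the cell with sterol were bright as a group, in a textbook list of 20 cholesterol synthesis enzymes that was drawn up after some of the values had been seen. All 20 were above the reference and above its 99th percentile, beside 60.1% and 49.0% of all genes, with a median percentile of 95.4. Of named genes 68.2% were above the reference. Msmo1, a sterol methyl oxidase, had 12.83 ± 0.07, squalene epoxidase (Sqle) 12.78 ± 0.03, and squalene synthase (Fdft1) 12.50 ± 0.04. Pmvk (9.06 ± 0.09) and Tm7sf2 (9.06 ± 0.06) were the dimmest of the 20.

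Fatty acid synthesis and desaturation had 15 of 19 members above the reference and a median percentile of 95.7. The desaturases Scd2 (13.42 ± 0.03), Scd1 (13.14 ± 0.05), Fads2 (13.06 ± 0.02) and Fads1 (12.90 ± 0.02), malic enzyme Me1 (12.81 ± 0.05) and the elongases Elovl5 (12.37 ± 0.04) and Elovl6 (12.21 ± 0.04) led it, while Scd3, Elovl2, Elovl3 and Elovl7 were not above the reference. Antioxidant and detoxification genes had 30 of 32 members above it, with a median percentile of 93.3. Besides Txn1 and the metallothioneins these included Gstm1 (13.27 ± 0.02), Sod1 (12.80 ± 0.15), Prdx1 (12.26 ± 0.13) and catalase (Cat, 12.03), and Gpx2 and Gpx3 were not above it. Beside these counts, 60.1% of all genes and 68.2% of named genes were above the reference. Both lists were also drawn up after some values had been seen.

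Of 8720 probe sets without a gene symbol, 5135, or 58.9%, were above the reference, and the brightest had a mean of 14.23.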
